A study of Mus musculus with 19 samples.

Results

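The comparison described here is granulocyte-monocyte progenitors (GMP) against common myeloid progenitors (CMP) in mice that lack Dnmt3a. Its members are the 6 arrays whose titles name Dnmt3a-/- GMP (3 arrays) or Dnmt3a-/- CMP (3 arrays), of 19 arrays in the series, and all 15781 measured genes were compared. Both groups carry the genotype Dnmt3a-/- on the C57Bl/6J strain and came from whole bone marrow, and the labels separate them by the sorted population. The wild-type arrays of the same strain and tissue, 3 of CMP and 4 of GMP, served to compare the step with its wild-type counterpart. The remaining arrays hold GMP of the genotypes PR+/- and PR+/-, Dnmt3a-/- and were used only in an alternative fit. The labels give no age, no sex, no sorting gate and no account of how the deletion was made, and do not say whether each array stands for another mouse. The p-values below therefore measure only the spread between these samples, which may be technical.

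CMP are bone marrow progenitors that can still give rise to granulocytes, monocytes, red cells and megakaryocytes, while GMP lie further along and are committed to the granulocyte and monocyte branches. On that path the factors PU.1 (gene Spi1), C/EBP alpha (Cebpa), Gfi1 and C/EBP epsilon (Cebpe) drive the granulocyte programme. The GATA factors serve the erythroid, megakaryocyte, mast cell and eosinophil lines, and Zfpm1, Gfi1b and Klf1 act beside them in the erythroid or megakaryocyte lines. Dnmt3a is a de novo DNA methyltransferase, known in the blood system for its role in stem cells turning off their programme as they differentiate. Levels are given as log2 intensity and changes as the log2 difference, GMP minus CMP, with the standard error (SE) of limma's fit. A gene was called at a Benjamini-Hochberg adjusted p under 0.05 over all 15781 genes.

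The sequences upstream of 4 genes on which the comparison turned are shown first, 250 bases before the annotated start, from RefSeq on build GRCm38.p6, in the direction of transcription. Capitals mark letters of a GATA motif (AGATAA), a PU.1 motif (GAGGAA) or a C/EBP motif (TTGCNNAA) on either strand. Prg3 (chr2:84987965-84988214, plus strand) encodes an eosinophil granule protein, Fcer1a (chr1:173227230-173227479, minus strand) the alpha chain of the high-affinity IgE receptor, and Mpo (chr11:87793534-87793783, plus strand) the myeloperoxidase of neutrophil primary granules, and all 3 rose. Gp5 (chr16:30310782-30311031, minus strand) encodes a platelet surface glycoprotein and fell.
Prg3: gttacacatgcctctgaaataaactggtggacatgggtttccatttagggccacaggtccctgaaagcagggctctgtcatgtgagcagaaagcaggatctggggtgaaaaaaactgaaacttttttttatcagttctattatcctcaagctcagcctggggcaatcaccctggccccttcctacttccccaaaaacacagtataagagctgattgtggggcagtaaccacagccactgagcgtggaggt
Fcer1a: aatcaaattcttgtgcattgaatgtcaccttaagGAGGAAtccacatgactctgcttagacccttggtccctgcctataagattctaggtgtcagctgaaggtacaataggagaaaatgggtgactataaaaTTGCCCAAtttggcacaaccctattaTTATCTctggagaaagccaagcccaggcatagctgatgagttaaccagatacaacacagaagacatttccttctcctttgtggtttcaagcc
Mpo: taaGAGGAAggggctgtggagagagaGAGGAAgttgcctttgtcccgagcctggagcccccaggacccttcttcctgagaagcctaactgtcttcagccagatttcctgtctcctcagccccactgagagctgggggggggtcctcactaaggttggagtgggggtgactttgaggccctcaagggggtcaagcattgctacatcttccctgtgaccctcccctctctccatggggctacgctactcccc
Gp5: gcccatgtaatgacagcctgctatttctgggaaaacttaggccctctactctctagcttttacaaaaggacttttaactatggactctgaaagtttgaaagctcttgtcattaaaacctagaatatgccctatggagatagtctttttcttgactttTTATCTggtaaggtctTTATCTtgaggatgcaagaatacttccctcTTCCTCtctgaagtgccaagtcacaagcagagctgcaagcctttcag
No motif was found in the Prg3 window. The Fcer1a window held 1 match of each kind, the Mpo window 2 PU.1 matches, and the Gp5 window 2 GATA matches and 1 PU.1 match. CG dinucleotides, the sites that DNA methyltransferases act on, numbered 1 in the Prg3 window, 0 in that of Fcer1a, 2 in that of Mpo and 0 in that of Gp5. The median over 12609 measured genes with a window was 12. Windows were at hand for 9 of the 12 leading higher genes and 11 of the 12 leading lower genes described next, and their median CG counts were 1 and 2. Over all called genes it was 13 in both directions, against 12 over all windows. The leading genes were not all low: Far2 had 17 CG and F2r 24. A GATA match lay in 7.36% of 707 windows of genes higher in GMP, in 9.52% of 578 windows of lower genes and in 8.39% of all windows. A PU.1 match lay in 25.0%, 24.6% and 22.6%, and a C/EBP match in 11.7%, 7.09% and 8.5%. These matches describe letters in a window and no factor was measured at them.

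The deleted gene was read first. Dnmt3a stood at 6.37, 6.49 and 6.41 on the 3 Dnmt3a-/- CMP arrays and at 6.06, 6.11 and 6.22 on the 3 Dnmt3a-/- GMP arrays. On the wild-type arrays it stood at 7.24, 7.65 and 7.5 in CMP and at 7.47, 7.39, 7.30 and 7.59 in GMP. All Dnmt3a-/- arrays thus lay below all wild-type arrays. Within Dnmt3a-/- the change of Dnmt3a from CMP to GMP was -0.29 ± 0.14 and was not called (adjusted p = 0.236), although all 3 GMP arrays were lower. It was called lower with its brighter probe sets (-0.48, adjusted p = 0.0258) and with array weights (-0.31, adjusted p = 0.0262). The change of -0.29 is that of the mean over 31 probe sets along the gene, and the deleted exons are not given in the labels.

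Across the genome the step from Dnmt3a-/- CMP to GMP was broad. Of the 15781 genes, 868 were called higher in GMP (5.5%) and 722 lower (4.58%), together 1590 genes (10.1%), and 3306 genes had an unadjusted p under 0.05. The median change of the called genes was 0.88 upward and -0.97 downward, against a median size of 0.20 over all genes. More than 2-fold changes were found for 344 of the higher and 337 of the lower genes, and more than 4-fold changes for 85 and 61. For 867 of the 868 higher genes and all 722 lower genes the 3 GMP arrays did not overlap the 3 CMP arrays. Over all genes 32.4% showed such separation (17.3% higher and 15.1% lower in GMP), so separation alone marks many genes that were not called. The counts of list members and the separations given below are to be read beside these shares of all genes. Among 1541 called genes with at least 3 probe sets, at least 50% of the probe sets separated in the called direction for 1271 and every probe set did for 273. Centring each array on its median raised the share of higher genes among the calls from 54.6% to 69.5%. With the median over probe sets in place of the mean, 997 genes were called, and without both arrays of replicate 1, 833. Leaving out CMP replicate 2 gave 1043 calls and CMP replicate 3, 968, while 2439 were called without the 3 wild-type arrays of title numbers 21986 to 21988, which share the fit and its estimate of the spread.

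The genes that rose most in GMP were those of eosinophil and basophil granules. Ear6, an eosinophil-associated ribonuclease, stood at 3.21, 2.09 and 2.81 in CMP and at 9.15, 8.54 and 8.21 in GMP, a change of 5.93 ± 0.71 (adjusted p = 0.000186). All 3 CMP values lay under the background level of 3.59, the median over genes of the germline, so the rise was at least 33.0-fold. Prg2, the eosinophil major basic protein, stood at 8.17, 5.14 and 5.56 in CMP and at 12.25, 12.22 and 12.13 in GMP, a change of 5.91 ± 0.75 (adjusted p = 0.000252). CMP replicate 1 stood well above the other CMP arrays, yet far below every GMP array. Prg3, a homologue of Prg2, stood at 3.69, 3.31 and 3.20 in CMP and at 8.72, 8.70 and 8.74 in GMP (change 5.32 ± 0.44, adjusted p = 2.05e-05), which is at least 35.1-fold. Epx, the eosinophil peroxidase, stood at 4.71, 4.43 and 4.89 in CMP and at 8.65, 8.51 and 8.72 in GMP (change 3.95 ± 0.46, adjusted p = 0.000169). For all 4 genes every probe set separated the GMP arrays from the CMP arrays. Of the 7 measured eosinophil genes 6 were called higher and none lower, with a median change of 3.95 against -0.01 over all genes. Among the others Alox15, a lipoxygenase, rose by 1.19, a call lost with the median over probe sets. Il5ra, the alpha chain of the interleukin-5 receptor, was called (adjusted p = 0.0065) but lay under background in both groups, as did Ccr3, the eotaxin receptor of mature eosinophils, which was not called. The summed picture per array was even: the mean level of the list was 4.28, 3.40 and 3.69 in CMP and 7.24, 7.01 and 7.04 in GMP.

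**Figure D1:**
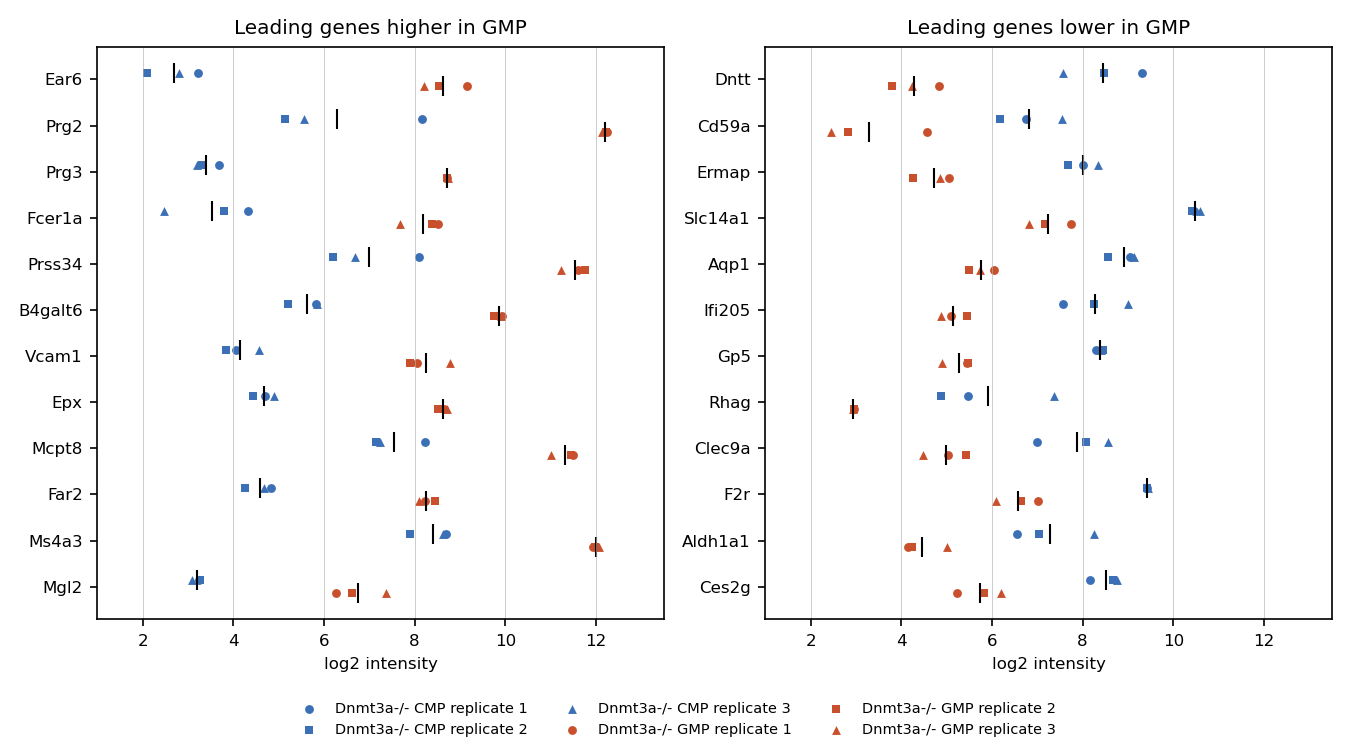
Log2 intensity of the 12 genes with the largest called rise (left panel) and the 12 with the largest called fall (right panel) on each Dnmt3a-/- array, CMP in blue and GMP in red, with a black tick at each group mean. The CMP and GMP arrays of every gene lie apart, and CMP replicate 1 (circle) stands nearest to GMP for Prg2, Prss34 and Mcpt8.

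Basophil genes rose with them. Fcer1a stood at 4.32, 3.80 and 2.47 in CMP and at 8.51, 8.37 and 7.67 in GMP, a change of 4.66 ± 0.46 (adjusted p = 6.62e-05). Its CMP mean lay under background, and against that level the rise was 24.2-fold, but CMP replicates 1 and 2 lay above it. Prss34, the basophil protease mMCP-11, stood at 8.10, 6.19 and 6.68 in CMP and at 11.60, 11.76 and 11.23 in GMP (change 4.54 ± 0.51, adjusted p = 0.000127). Mcpt8, the basophil protease mMCP-8, stood at 8.23, 7.15 and 7.24 in CMP and at 11.50, 11.45 and 11.01 in GMP (change 3.78 ± 0.38, adjusted p = 6.75e-05). None of the 3 genes overlapped between the groups. Of the 14 measured basophil and mast cell genes 8 rose and 1 fell, with a median change of 2.09, or 1.95 with genes under background at their bound. The other 5 that rose were Cyp11a1 (2.60), a steroid side-chain cleavage enzyme, Ms4a2 (2.45), the beta chain of the IgE receptor, Hdc (2.40), which makes histamine, Gzmb (at least 3.56-fold), granzyme B, and Cpa3 (2.07), the mast cell carboxypeptidase. Cma1, Mcpt1, Mcpt2, Tpsab1 and Tpsb2, proteases of mast cells, changed by -0.47 to 0.18 and were not called, Mcpt1 and Mcpt2 lying under background in both groups, and Slc18a2, the vesicular monoamine transporter that loads histamine, fell by 1.29. In bulk RNA, more cells of a type and more RNA per cell cannot be told apart.

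Genes outside these lists also stood among the 12 leading risers. B4galt6, a lactosylceramide synthase, stood at 5.83, 5.21 and 5.84 in CMP and at 9.92, 9.75 and 9.91 in GMP (change 4.23 ± 0.37, adjusted p = 2.71e-05). Vcam1, a vascular and macrophage adhesion molecule, stood at 4.05, 3.83 and 4.57 in CMP and at 8.05, 7.89 and 8.79 in GMP (change 4.09 ± 0.42, adjusted p = 7.39e-05), on all of its 15 probe sets. Far2, a fatty acyl reductase, changed by 3.67 ± 0.36 (adjusted p = 6.62e-05). Mgl2, a macrophage galactose-type lectin, stood at 3.25, 3.27 and 3.10 in CMP and at 6.26, 6.62 and 7.37 in GMP, a rise of at least 8.96-fold (adjusted p = 0.00021). Its GMP arrays spread more widely than those of the other leading risers named here, and still lay apart from the CMP arrays. Stromal and endothelial genes, which share Vcam1, did not rise: of 8 measured, 2 fell, Col1a2 (-1.04) and Pdgfrb (-0.68), and the mean level of the list was 4.29 to 4.52 in CMP and 4.04 to 4.21 in GMP.

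The primary granule genes of neutrophils and monocytes, which CMP begin to make, rose as a group. Of the 8 measured, 7 rose and none fell, with a median change of 1.55. Mpo stood at 11.59, 11.80 and 11.59 in CMP and at 12.97, 12.97 and 12.94 in GMP (change 1.30 ± 0.13, adjusted p = 6.8e-05). Prtn3, proteinase 3, stood at 9.26, 9.14 and 9.04 in CMP and at 11.80, 11.83 and 11.95 in GMP (change 2.72 ± 0.29, adjusted p = 9.85e-05). Ctsg, cathepsin G, stood at 9.49, 9.71 and 9.54 in CMP and at 11.95, 11.80 and 11.93 in GMP (change 2.31 ± 0.25, adjusted p = 9.43e-05). Replicates of these 3 genes lay within a narrow band and the groups stood clear of each other. Ms4a3, a membrane protein of granulocyte-monocyte precursors, rose most, from 8.70, 7.91 and 8.62 to 11.94, 11.98 and 12.06 (change 3.58 ± 0.70, adjusted p = 0.00469). Serpinb1a (1.80), an inhibitor of these proteases, Ctsc (0.77), which activates them, and Srgn (0.74), the granule proteoglycan, rose as well. Nkg7 changed by 0.95 ± 0.31 with adjusted p = 0.079 and was called in a fit of the 6 Dnmt3a-/- arrays alone, with adjacent title numbers as pairs (adjusted p = 0.00707) or without pairs (adjusted p = 0.00178). Neutrophil elastase, Elane, could not be matched to a single gene, because the annotation names its probe sets Ela2, an older symbol shared with a pancreatic elastase. The 6 probe sets named Ela2, singled out after their values were seen, rose by 3.52 (adjusted p = 0.000416).

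The later granule genes showed no such rise. In the list of secondary granules and neutrophil maturation, 2 of 20 measured members were called higher and 0 lower, and the median change was -0.04. Cebpe, the factor needed for secondary granules, rose from 7.69, 6.08 and 5.85 to 9.91, 9.66 and 10.06 (change 3.34 ± 0.64, adjusted p = 0.00409). Anxa1, annexin A1, changed by 1.10 (adjusted p = 0.036) and lost its call without any of the Dnmt3a-/- arrays other than CMP replicate 1 (adjusted p up to 0.16). The products of mature neutrophils did not separate. Camp, the cathelicidin, stood at 12.33, 10.95 and 10.93 in CMP and at 12.06, 11.08 and 11.45 in GMP. Ltf, lactoferrin, stood at 10.70, 8.64 and 8.17 in CMP and at 10.09, 8.20 and 7.32 in GMP. Replicate 1 was the highest array of both populations for both genes. The same held for the whole list, whose mean level was 10.03, 8.57 and 8.50 in CMP and 9.93, 8.94 and 8.97 in GMP. Replicate 1 of both populations therefore stood apart in neutrophil transcripts by more than the populations differed, and its part in other results was measured by leaving both arrays out. Without them 5 members rose and 2 fell. Without CMP replicate 1 alone 6 rose. The risen ones included Cybb (1.68), a subunit of the phagocyte oxidase, Chil3 (1.38), a chitinase-like protein of myeloid cells, and Itgam (1.17), the integrin CD11b. In the fit of the 6 Dnmt3a-/- arrays alone, 4 members were called lower with adjacent title numbers as pairs and 0 without pairs.

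**Figure D2:**
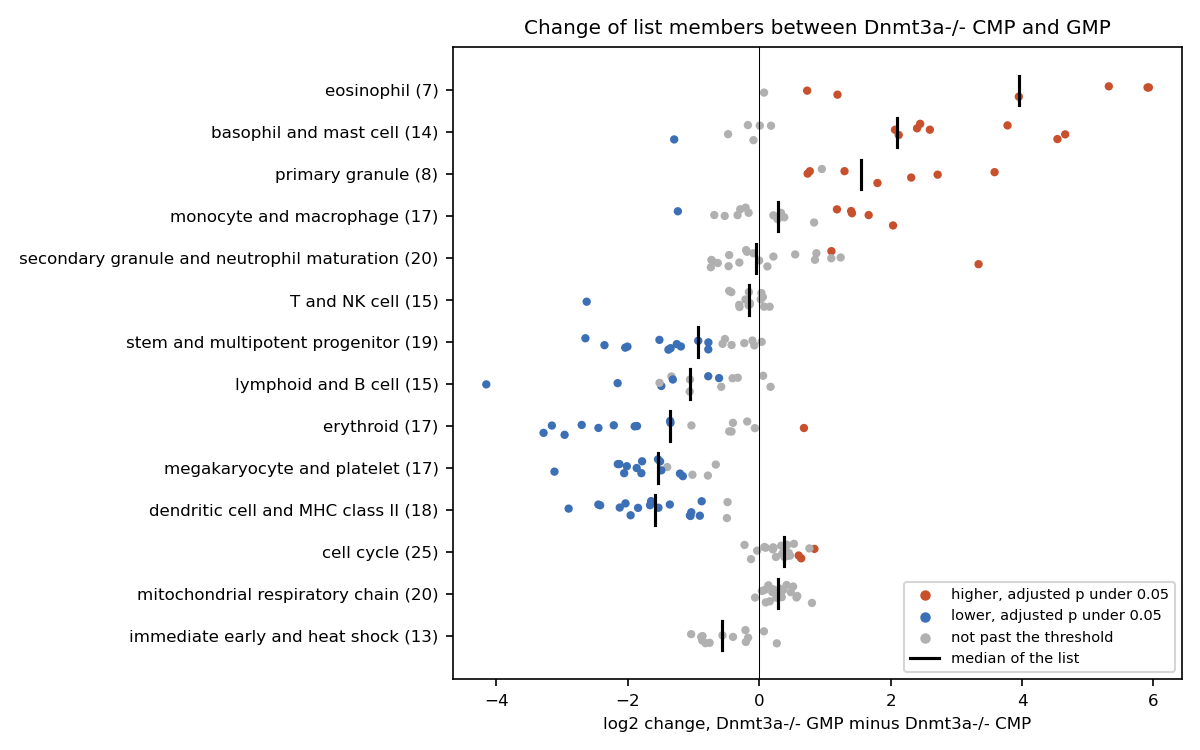
Log2 change from Dnmt3a-/- CMP to GMP of each measured member of 14 gene lists, with the number of members in brackets, red for called higher, blue for called lower, grey for not called and a black tick at the list median. The eosinophil list has the highest median of the 14, 3.95, and the dendritic cell and MHC class II list the lowest, -1.59.

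Monocyte genes moved in both directions. Of 17 measured, 5 rose and 1 fell (2 without CMP replicate 1), with a median change of 0.28. F13a1, the coagulation factor XIII subunit of monocytes, stood at 6.84, 7.36 and 7.78 in CMP and at 9.25, 9.44 and 9.39 in GMP (change 2.04 ± 0.25, adjusted p = 0.00023). Csf1r, the M-CSF receptor, stood at 6.2, 6.79 and 6.28 in CMP and at 7.60, 7.71 and 7.51 in GMP (change 1.18 ± 0.18, adjusted p = 0.000928). Both stood clear of the CMP arrays in all 3 GMP arrays. Tlr4 (1.67), Ly6c2 (1.41), a surface antigen of inflammatory monocytes, and Adgre1 (at least 2.59-fold), the antigen F4/80, rose too. Lyz2 (0.33), Cd68 (0.38), Ccr2 (-0.52) and Cx3cr1 (-0.21) were among the 11 members not called. The member that fell was Irf8, a factor of monocyte and dendritic cell fate, from 8.67, 9.29 and 9.32 to 7.79, 8.09 and 7.68 (change -1.24 ± 0.26, adjusted p = 0.00762).

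Genes of dendritic cells and of MHC class II presentation fell nearly as a whole. Of 18 measured, 16 fell and none rose, with a median change of -1.59. Clec9a, a receptor for dead cells on type 1 dendritic cells, stood at 6.99, 8.08 and 8.55 in CMP and at 5.02, 5.42 and 4.48 in GMP (change -2.90 ± 0.37, adjusted p = 0.000279). Cd74, the invariant chain, stood at 10.22, 10.72 and 11.18 in CMP and at 8.14, 8.30 and 8.42 in GMP (change -2.42 ± 0.29, adjusted p = 0.000194). H2-Eb1 (-2.12), H2-Ab1 (-2.04) and H2-Aa (-1.96), the class II chains, fell alongside, as did Siglech (-2.45) of plasmacytoid dendritic cells. The call of H2-Aa (adjusted p = 0.043) was lost without any of the 6 Dnmt3a-/- arrays or any of 3 wild-type arrays (adjusted p up to 0.162). Ciita (-1.66), the class II transactivator, and the factors Id2 (-1.84), Batf3 (-1.53), Tcf4 (-1.36) and Zbtb46 (-1.03) fell as well. Xcr1 (-0.49) and Cst3 (-0.48) were not called. In the mean level of the list CMP replicate 1 was the lowest of the CMP arrays, at 7.69 against 8.07 and 8.24, and the GMP arrays stood at 6.37, 6.46 and 6.52.

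Of 13 measured granulocyte and monocyte transcription factors 4 rose and 2 fell, with a median change of -0.03. Gfi1, a repressor needed for neutrophil differentiation, stood at 5.45, 5.41 and 5.39 in CMP and at 7.76, 7.75 and 7.92 in GMP (change 2.40 ± 0.22, adjusted p = 4.47e-05). Spi1 stood at 8.82, 8.88 and 8.95 in CMP and at 9.76, 9.60 and 9.98 in GMP (change 0.90 ± 0.14, adjusted p = 0.00109). Cebpa stood at 6.91, 6.77 and 7.05 in CMP and at 7.67, 7.59 and 8.01 in GMP (change 0.85 ± 0.14, adjusted p = 0.00179). All 3 separated without overlap, as did Cebpe, whose values are given above. Sox4, a factor of immature progenitors, fell by 0.97, next to Irf8. Cebpb (0.75), Myb (-0.03), Runx1 (-0.04) and Klf4 (-0.16) were not called. Cebpa was not called with the median over its 4 probe sets.

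**Figure D3:**
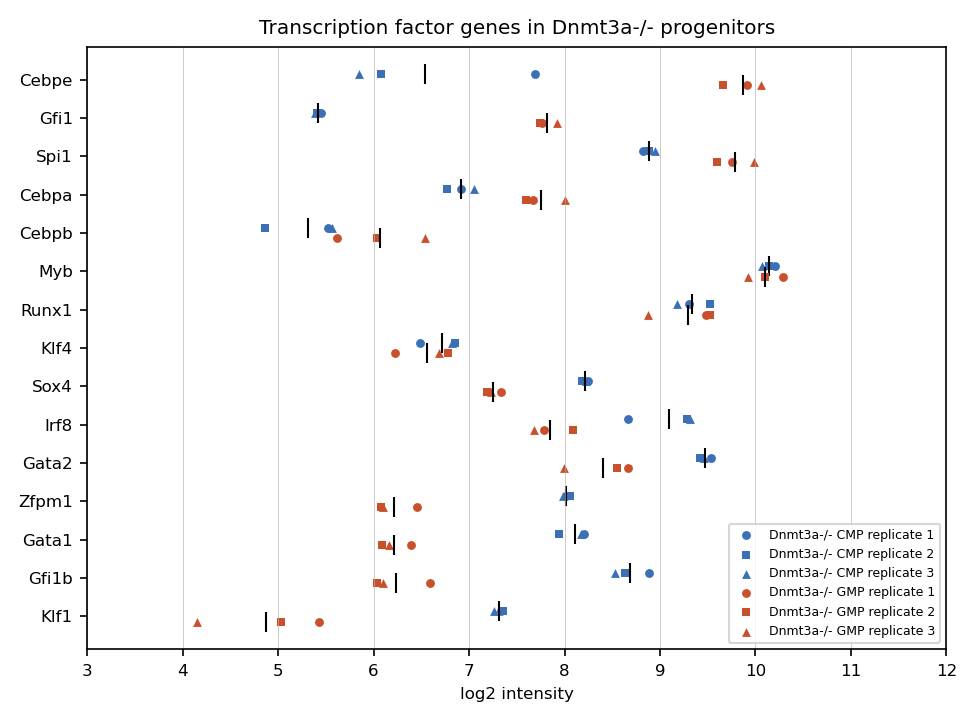
Log2 intensity of 15 transcription factor genes on each Dnmt3a-/- array, CMP in blue and GMP in red, with a black tick at each group mean. Cebpe, Gfi1, Spi1 and Cebpa stand higher in GMP, Sox4, Irf8, Gata2, Zfpm1, Gata1, Gfi1b and Klf1 stand lower, and the arrays of Myb and Runx1 overlap.

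Of 12 erythro-megakaryocytic factors 7 fell and 1 rose, with a median change of -0.83. Gata1, the lead factor of the erythroid and megakaryocyte lines, stood at 8.20, 7.95 and 8.17 in CMP and at 6.39, 6.08 and 6.16 in GMP (change -1.89 ± 0.25, adjusted p = 0.000373). Klf1, the erythroid Krüppel-like factor, stood at 7.33, 7.35 and 7.27 in CMP and at 5.43, 5.03 and 4.15 in GMP (change -2.45 ± 0.43, adjusted p = 0.00226). Gfi1b stood at 8.88, 8.63 and 8.53 in CMP and at 6.59, 6.03 and 6.10 in GMP (change -2.44 ± 0.35, adjusted p = 0.000623). Each of these fell on every GMP array. Zfpm1 (-1.81), the GATA1 cofactor, Gata2 (-1.07), Ldb1 (-1.04) and Lmo2 (-0.49), bridging partners in the same complexes, fell too. Gata2, which basophils and mast cells also use, kept a level of 8.67, 8.55 and 8.0 in GMP, and its call was lost without CMP replicate 1 or 3 or GMP replicate 3 (adjusted p up to 0.0826), without both arrays of replicate 1 (0.0727) and with the median over probe sets (0.0664). Tal1 (-0.61), Nfe2 (-0.29) and Fli1 (0.15) were not called. Lyl1, a relative of Tal1, changed by 0.48 and was not called in the 6 arrays alone, with or without pairs, or without any of 5 of the 6 Dnmt3a-/- arrays.

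The list of erythroid genes, which shares Gata1 and Klf1 with that of the factors, fell too. Of 17 measured 10 fell and 1 rose, with a median change of -1.36. Ermap, an erythroid membrane protein, stood at 8.0, 7.68 and 8.34 in CMP and at 5.05, 4.27 and 4.86 in GMP (change -3.28 ± 0.45, adjusted p = 0.000445). Aqp1, the water channel of red cells, stood at 9.05, 8.55 and 9.14 in CMP and at 6.05, 5.49 and 5.73 in GMP (change -3.15 ± 0.41, adjusted p = 0.000289). Car2 (-2.70), carbonic anhydrase II, Hemgn (-2.21) and Epor (-1.86), the erythropoietin receptor, fell. Rhag, a Rhesus complex protein, stood at 5.47, 4.88 and 7.37 in CMP and at 2.95, 2.95 and 2.93 in GMP, a fall of at least 4.99-fold (adjusted p = 0.0402). CMP replicate 3 was far above the other CMP arrays for this gene, and the call was lost without it and on leaving out any of 7 other arrays in turn (adjusted p up to 0.179). Hemgn lost its call without CMP replicate 3 or GMP replicate 3 (adjusted p up to 0.0548). The genes of later red cells, Slc4a1 (-0.46), Epb42 (-0.42), Sptb (-0.18) and Trim10 (-0.07), were not called. The exception in direction was Tfrc, the transferrin receptor of dividing cells, which changed by 0.68 and lost its call without any of the 6 Dnmt3a-/- arrays and in the 6 arrays alone with pairs. Outside the list, Slc14a1, the urea transporter of the Kidd blood group, stood at 10.47, 10.41 and 10.58 in CMP and at 7.73, 7.17 and 6.82 in GMP (change -3.25 ± 0.61, adjusted p = 0.00389). Cd59a, a complement inhibitor of blood cells, fell from 6.74, 6.18 and 7.54 to 4.57, 2.83 and 2.45 (change -3.53 ± 0.67, adjusted p = 0.00373). Its GMP mean lay under background, and against that level the fall was 9.40-fold, but GMP replicate 1 lay above it.

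Haem synthesis split by enzyme. Alas1, the housekeeping first enzyme of the pathway, stood at 7.81, 7.62 and 7.86 in CMP and at 10.65, 10.72 and 10.86 in GMP (change 2.98 ± 0.25, adjusted p = 2.05e-05). Its erythroid counterpart Alas2 stood at 4.97, 5.57 and 4.92 in CMP and at 4.71, 4.91 and 4.03 in GMP and was not called (adjusted p = 0.415). The direction of the 2 genes was thus opposite on the means, with a test passed for Alas1. Alad, the second enzyme, changed by -0.67 (adjusted p = 0.0444) and lost its call on leaving out 10 of 13 arrays in turn. The other 5 members changed by -0.28 to 0.16 and were not called.

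Platelet genes fell as broadly. Of 17 measured megakaryocyte and platelet genes 13 fell and none rose, with a median change of -1.54. Gp5 stood at 8.29, 8.44 and 8.41 in CMP and at 5.44, 5.47 and 4.89 in GMP (change -3.12 ± 0.48, adjusted p = 0.000937). Vwf, von Willebrand factor, stood at 6.82, 6.81 and 7.43 in CMP and at 5.26, 4.77 and 4.97 in GMP (change -2.01 ± 0.20, adjusted p = 7.39e-05). Vwf fell on all of its 53 probe sets. Pf4, platelet factor 4, stood at 11.45, 11.27 and 11.60 in CMP and at 10.13, 8.82 and 8.97 in GMP (change -2.13 ± 0.56, adjusted p = 0.0274). Its call was lost without any of 5 of the Dnmt3a-/- arrays (all but GMP replicate 1, adjusted p up to 0.104). Rab27b (at least 3.81-fold), Plek (-2.05), Gp9 (-1.86), Gp1ba (-1.78), Itgb3 (-1.54) and Itga2b (-1.51), of granule release, signalling and the platelet receptors, fell. Cd9 (-0.78), Gp1bb (-1.02), Ppbp (-1.40) and Thbs1 (-0.66) were not called. F2r, the thrombin receptor PAR1 and outside the list, stood at 9.41, 9.42 and 9.43 in CMP and at 7.01, 6.63 and 6.09 in GMP (change -2.84 ± 0.42, adjusted p = 0.000707).

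Stem cell genes also declined. Of 19 measured 12 fell and none rose, with a median change of -0.93. Meis1, a homeobox partner of the Hox factors, stood at 9.21, 9.11 and 9.04 in CMP and at 7.15, 6.85 and 5.42 in GMP (change -2.64 ± 0.33, adjusted p = 0.000246). Slamf1, the antigen CD150 of long-term stem cells, fell at least 3.71-fold, from 5.31, 5.27 and 5.85 to 3.55, 2.93 and 2.89 (adjusted p = 0.000105). The 3 GMP arrays of Meis1 spread over a wider range than its CMP arrays, and no array of either gene overlapped. Tek (at least 3.61-fold), the angiopoietin receptor, its ligand Angpt1 (-2.01), Hlf (-1.52), Mllt3 (-1.38), Mycn (-1.35) and Mecom (-1.25), regulators of stem cell maintenance, fell. Hoxa9 changed by -0.77 and was called, Hoxa10 by -0.10 and was not. Aldh1a1, a retinaldehyde dehydrogenase, stood at 6.56, 7.04 and 8.24 in CMP and at 4.14, 4.24 and 5.0 in GMP (change -2.82 ± 0.52, adjusted p = 0.00328).

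The largest single fall belonged to a lymphoid gene. Dntt, the terminal transferase of early lymphocytes, stood at 9.31, 8.46 and 7.56 in CMP and at 4.83, 3.80 and 4.24 in GMP (change -4.15 ± 0.44, adjusted p = 9.27e-05). Flt3, a receptor of multipotent and lymphoid progenitors, stood at 8.01, 8.47 and 8.13 in CMP and at 5.92, 6.04 and 6.19 in GMP (change -2.15 ± 0.23, adjusted p = 9.27e-05). Of 15 measured lymphoid and B cell genes 6 fell and none rose, with a median change of -1.05. The others that fell were Cd22 (-1.49), Ms4a1 (at least 2.23-fold), Ighm (-0.78) and Satb1 (-0.61). Il7r stood at 6.65, 6.13 and 4.89 in CMP and at 4.51, 4.50 and 4.10 in GMP and was not called (adjusted p = 0.0883). In the 6 Dnmt3a-/- arrays alone it was called with pairs (adjusted p = 0.0174) and without (adjusted p = 0.0477). Rag1 (-1.05), Ebf1 (-1.06) and Blnk (-1.34) were not called, and Blnk was called in the 6 arrays alone with pairs (adjusted p = 0.0161) and without (adjusted p = 0.0193). The mean level of the 15 measured markers of T and NK cells was 4.44 to 4.60 in CMP and 4.01 to 4.31 in GMP. Klrd1, the NK receptor CD94, alone among them fell, from 6.17, 7.05 and 6.88 to 4.65, 3.82 and 3.75 (change -2.63 ± 0.38, adjusted p = 0.000603). The 2 other leading falls outside the lists were those of Ifi205 (-3.13), an interferon-inducible gene, and Ces2g (-2.78), a carboxylesterase.

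**Figure D4:**
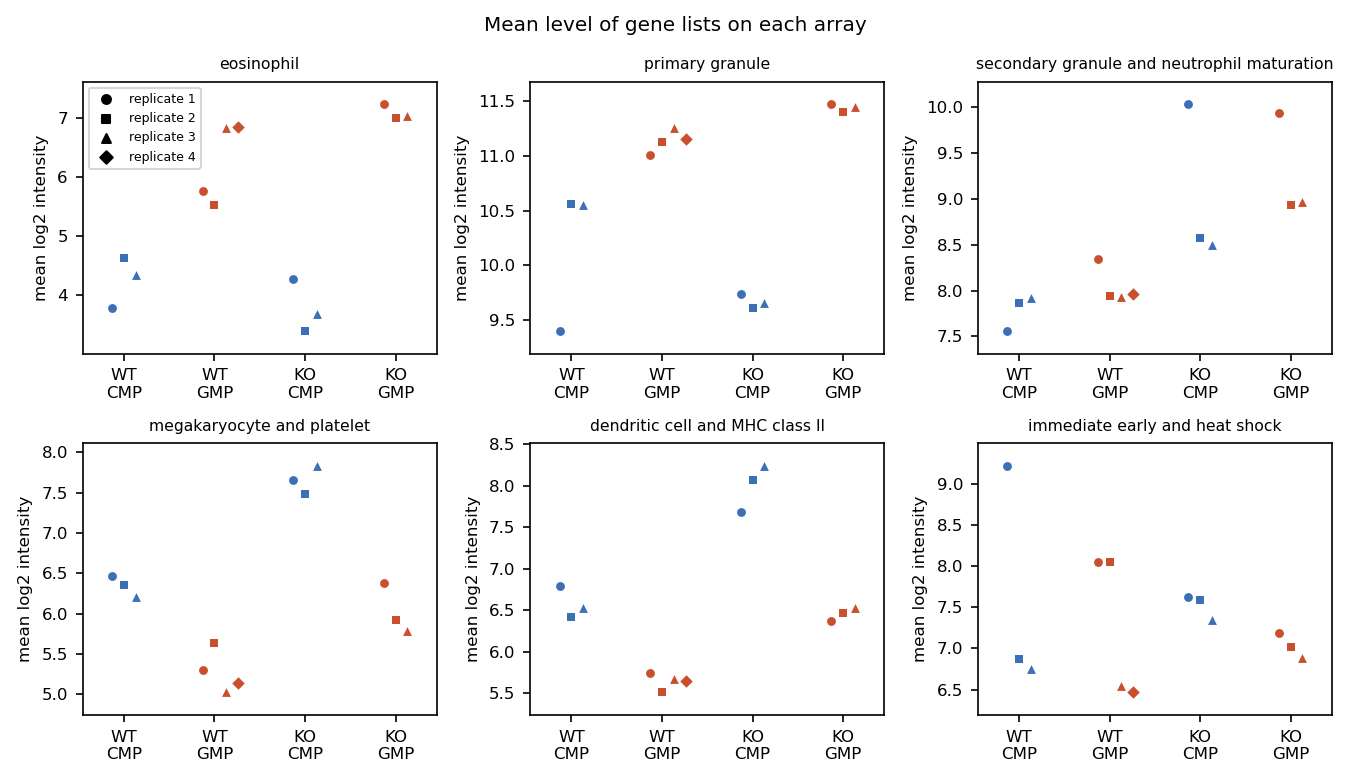
Mean log2 intensity of 6 gene lists on each array (points), by population, in wild-type (WT) and Dnmt3a-/- (KO), with marker shapes for replicate numbers. Secondary granule levels of Dnmt3a-/- replicate 1 lie at 10.03 in CMP and 9.93 in GMP, above the other Dnmt3a-/- arrays, and immediate early levels of the wild-type arrays spread from 6.47 to 9.22.

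The genes of the surface antigens used to sort these populations were checked against the labels. GMP are usually separated from CMP by a high level of the Fc gamma receptors, both being positive for Kit and negative for Sca-1 and the interleukin-7 receptor. Fcgr3 stood at 7.21, 5.82 and 6.31 in CMP and at 10, 9.82 and 10.12 in GMP (change 3.53 ± 0.48, adjusted p = 0.000437). Fcgr2b stood at 5.15, 4.87 and 5.50 in CMP and at 6.28, 6.61 and 6.59 in GMP (change 1.32 ± 0.24, adjusted p = 0.00259). Both stood in the direction of the labels on every array, although Fcgr2b was not called with the median over probe sets, and since a sort may use these proteins, their rise is no finding. Kit stood at 10.08, 10.05 and 10.09 in CMP and at 9.16, 9.21 and 9.08 in GMP (change -0.93 ± 0.12, adjusted p = 0.000231). Cd34 changed by -0.01 ± 0.18 and Ly6a, the Sca-1 gene, by -0.23 ± 0.28, with overlapping arrays.

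Of 12 measured cytokine receptor genes 7 were called higher (4 without both arrays of replicate 1) and 3 lower, with a median change of 0.65. Csf3r, the G-CSF receptor, stood at 8.44, 7.92 and 7.13 in CMP and at 9.32, 9.09 and 9.18 in GMP (change 1.37 ± 0.24, adjusted p = 0.00236). Csf2rb, the shared beta chain for GM-CSF, interleukin-3 and interleukin-5, stood at 7.73, 7.58 and 7.44 in CMP and at 8.80, 8.74 and 8.83 in GMP (change 1.21 ± 0.14, adjusted p = 0.000156). Its near copy Csf2rb2 (1.35), Csf1r, Ifngr1 (0.68) and Il3ra (0.62) rose, and Flt3, Epor and Kit fell. Il5ra, the other member called higher, lay under background in both groups, and its call was lost with log2 of the intensity plus 16 (adjusted p = 0.0789). Csf2rb2 lost its call without both arrays of replicate 1. Of 13 Toll-like receptor genes and partners 2 rose and 2 fell, against 5.5% and 4.58% of all genes. Tlr4, the endotoxin receptor, stood at 5.61, 5.46 and 5.35 in CMP and at 7.01, 7.17 and 7.23 in GMP (change 1.67 ± 0.14, adjusted p = 2.4e-05), while its relative Cd180 stood at 9.14, 9.61 and 9.43 in CMP and at 7.80, 7.86 and 7.37 in GMP (change -1.72 ± 0.22, adjusted p = 0.000273). Tlr3, the receptor for double-stranded RNA, fell by 2.38 and Tlr8 rose at least 1.68-fold, a call lost with the median over probe sets and without CMP replicate 2 or 3 or GMP replicate 2 (adjusted p up to 0.098). In the 6 Dnmt3a-/- arrays alone 6 members of this list were called higher with pairs and 3 without.

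Few genes of growth and general upkeep were called. Of 25 measured cell cycle genes 3 rose, Ccne2 (0.84), Mcm5 (0.64) and Bub1 (0.60), and none fell, but 22 lay above 0 and the median change was 0.38. By limma 12 of the 25 had an unadjusted p under 0.05, against 3306 of all 15781 genes. With arrays centred on their medians 7 were called higher, and Bub1 was not called in the 6 Dnmt3a-/- arrays alone with pairs (adjusted p = 0.0678) and was without (adjusted p = 0.046). Without CMP replicate 1, GMP replicate 1 or GMP replicate 2, 1 cell cycle gene was called, and Mcm5 was not called with the median over probe sets. None of 12 ribosome biogenesis, 7 ribosomal protein and 20 mitochondrial respiratory chain genes was called by limma, with 1, 0 and 7 at an unadjusted p under 0.05, although 19 of the 20 mitochondrial genes lay above 0, with a median change of 0.29, and in the 6 arrays alone 3 were called with pairs and 2 without. Immediate early and heat shock genes, whose level can change with handling, had a median change of -0.56 and none of 13 was called by limma, with 0 at an unadjusted p under 0.05. The mean level of that list was 7.63, 7.58 and 7.35 in CMP and 7.18, 7.01 and 6.89 in GMP, lower on every GMP array. In the 6 Dnmt3a-/- arrays alone 5 members were called lower with pairs, among them Dusp1 (-1.04, adjusted p = 0.0337) and Egr1 (-0.82, adjusted p = 0.0178), and 2 without pairs (Dusp1, adjusted p = 0.0295). Without the 3 wild-type arrays of title numbers 21986 to 21988, 5 members were called lower too, among them Dusp1 (adjusted p = 0.02) and Egr1 (adjusted p = 0.0357). Its part in other results was not tested. Of 12 interferon-stimulated genes Gbp3 (0.88) rose and Irf7 (-1.09) fell, and neither was called with the median over probe sets.

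Among 12 genes of DNA methylation and demethylation 1 was called. Uhrf1, which guides the maintenance methyltransferase to replicating DNA, stood at 9.68, 9.80 and 9.31 in CMP and at 10.12, 10.22 and 10.27 in GMP (change 0.61 ± 0.17, adjusted p = 0.0398). In the 6 Dnmt3a-/- arrays alone it was not called with pairs (adjusted p = 0.0621) and was without (adjusted p = 0.0407), and it was not called on leaving out any of 9 of the 13 arrays in turn (adjusted p up to 0.184). Dnmt3b, the other de novo enzyme, stood at 6.84, 6.96 and 6.91 in CMP and at 6.47, 6.41 and 6.56 in GMP and was not called (adjusted p = 0.0688), while Dnmt1 (0.14) and Tet2 (-0.04) changed little. Of 18 germline genes, whose median served as the background level and some of which DNA methylation keeps silent in blood cells, 2 rose. Oosp1, an oocyte-secreted protein gene, rose from 4.40, 4.73 and 4.58 to 6.56, 6.41 and 6.91 (change 2.06 ± 0.34, adjusted p = 0.00147). Sycp3 (adjusted p = 0.00688), a protein of meiotic chromosomes, rose by at least 1.33-fold, a call lost with the median over probe sets. Both populations of this comparison lack Dnmt3a, so it cannot show whether the genotype has a part in the change of Oosp1. In the wild-type step 0 of the 18 germline genes were called higher, and 0 were called for the difference of the steps.

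The step in Dnmt3a-/- cells was then set beside the step in wild-type cells. In wild-type, 678 genes were called (4.3%), 295 higher (1.87%) and 383 lower (2.43%), on 3 CMP and 4 GMP arrays. Of these, 541 were called in the same direction in Dnmt3a-/-, which is 79.8% of the wild-type calls and 34.0% of the Dnmt3a-/- calls. The sign of the wild-type step was that of the Dnmt3a-/- step for 95.7% of the genes called in Dnmt3a-/-, against 64.5% of all genes, and across all genes the steps correlated with r = 0.675. The gene called in opposite directions, Olfr389, has 1 probe set and lay under background in both Dnmt3a-/- groups. In size the steps were not alike: 771 genes changed by over 1 in Dnmt3a-/- and 408 in wild-type, and the standard deviation over genes was 0.493 and 0.387. Among genes called in Dnmt3a-/- the median ratio of the wild-type step to the Dnmt3a-/- step was 0.556, and among genes called in wild-type that of the Dnmt3a-/- step to the wild-type step was 1.09. Choosing genes on the step in the divisor lowers both ratios.

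The difference of the steps was tested gene by gene as an interaction. By limma no gene was called (0%), the lowest adjusted p was 0.0856, and 1083 genes had an unadjusted p under 0.05. So no single gene was shown to take a different step without Dnmt3a in this fit, and that does not show that the steps were the same, at a median SE of 0.26. The immediate early list stood at 8.05 to 9.22 on the 3 wild-type arrays of title numbers 21986 to 21988 and at 6.47 to 6.88 on the other 4 wild-type arrays. Without those 3 arrays 10 genes were called for the difference, without the CMP array among them (replicate 1) 23, and with array weights 48. Leaving out wild-type CMP replicate 3 or wild-type GMP replicate 2 gave 1 call each. The Y-linked genes Kdm5d and Eif2s3y averaged 2.54 to 2.91, under background, on the Dnmt3a-/- arrays. In wild-type they averaged 3.06 on CMP replicate 3 and 3.25 on GMP replicate 4, also under background, and 6.84 to 7.25 on the other arrays. Title numbers ran from 21986 to 22012 in wild-type and from 22298 to 22303 in Dnmt3a-/-. Genotype therefore cannot be told apart from what these numbers mark, nor fully from the Y-linked signal. With the Y-linked level as a covariate 1575 genes were called between Dnmt3a-/- GMP and CMP. That level hardly varied over the Dnmt3a-/- arrays, so the covariate could hardly move their step. The count therefore does not bear on the difference of the steps.

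**Figure D5:**
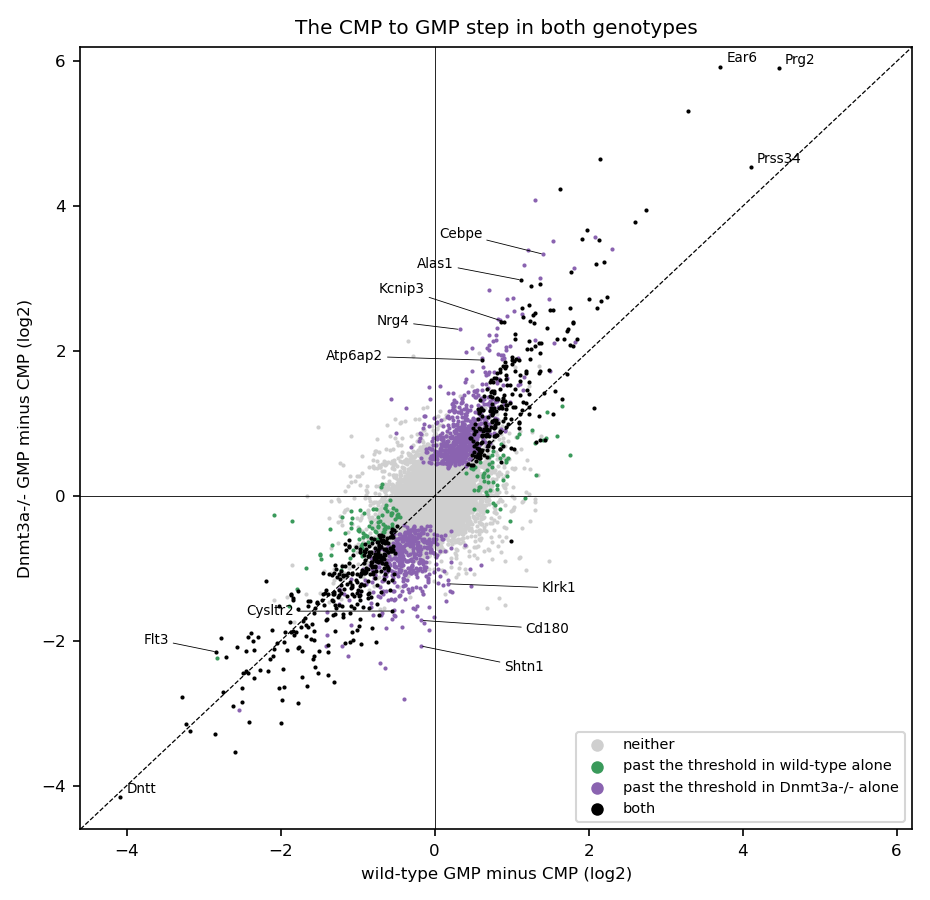
Log2 change from CMP to GMP of each of 15781 genes in wild-type (horizontal axis) and in Dnmt3a-/- (vertical axis), coloured by the comparison in which the gene was called, with a dashed line of equal change. The highest risers lie above the line, as Ear6 at 3.71 in wild-type and 5.93 in Dnmt3a-/-, and no gene was called for the difference.

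The 8 genes with the lowest p for that difference were Nrg4, Kcnip3, Shtn1, Atp6ap2, Robo3, Cysltr2, Alas1 and Klrk1, with adjusted p between 0.0856 and 0.182. Alas1 rose by 2.98 in Dnmt3a-/- and by 1.12 in wild-type, where its arrays stood at 8.60, 9.64 and 9.76 in CMP and at 10.36, 10.20, 10.70 and 10.58 in GMP. Wild-type CMP replicate 1 was the lowest of the wild-type CMP arrays, and without it the adjusted p was 0.0013. Nrg4, neuregulin 4, stood at 4.49, 4.62 and 4.60 in Dnmt3a-/- CMP and at 6.94, 6.69 and 6.98 in Dnmt3a-/- GMP, a change of 2.30 ± 0.21, against 0.33 in wild-type. In wild-type it stood at 4.23, 4.48 and 4.54 in CMP and at 4.95, 4.10, 4.93 and 4.99 in GMP, so the Dnmt3a-/- GMP arrays lay above all wild-type arrays. Without wild-type GMP replicate 2, the lowest, its adjusted p was 0.0078. Kcnip3, a calcium-binding potassium channel partner, rose by 2.41 against 0.90, and Atp6ap2, the prorenin receptor, by 1.88 against 0.62. Shtn1, an axon growth protein, fell by 2.07 in Dnmt3a-/-, from 5.64, 6.01 and 6.74 to 4.0, 4.14 and 4.04, and was not called in wild-type (-0.18). Robo3 (-1.58), Cysltr2 (at least 1.82-fold), a leukotriene receptor, and Klrk1 (-1.21), the NK receptor NKG2D, fell in Dnmt3a-/-, and Klrk1 lost its call with the median over probe sets.

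By list, the median step was larger in Dnmt3a-/- for eosinophil genes (3.95 against 2.75), basophil and mast cell genes (2.09 against 0.90), primary granule genes (1.55 against 0.85), megakaryocyte genes (-1.54 against -1.0) and dendritic cell and MHC class II genes (-1.59 against -0.63). The 2 medians of a list can fall on different genes. Taken gene by gene, the median difference of the steps was 1.24, 0.36, 0.93, -0.70 and -0.62 in these lists, in that order. It was close for erythroid genes (-1.36 against -1.44) and erythro-megakaryocytic factors (-0.83 against -0.85). No member of these lists was called for the difference. In mean level the primary granule list stood at 9.74, 9.61 and 9.66 in Dnmt3a-/- CMP and at 9.40, 10.56 and 10.55 in wild-type CMP. Wild-type CMP replicates 2 and 3 thus lay between the Dnmt3a-/- CMP arrays and the GMP arrays of either genotype, which stood at 11.40 to 11.47 in Dnmt3a-/- and 11.01 to 11.26 in wild-type. The same 2 wild-type arrays were the highest CMP arrays for the eosinophil list, at 4.63 and 4.35. In wild-type GMP this list stood at 5.76 and 5.53 on replicates 1 and 2 (title numbers 21986 and 21988). On replicates 3 and 4 it stood at 6.84 and 6.85, nearer to the 7.01 to 7.24 of Dnmt3a-/- GMP. Ear6 split alike, at 5.76, 5.10, 8.33 and 8.23 on wild-type GMP replicates 1 to 4. Replicates 1 and 2 thus lower the wild-type step of Ear6 and of the list mean. How much of the difference between the genotypes they make up was not tested. The megakaryocyte list stood at 7.49 to 7.83 in Dnmt3a-/- CMP and at 6.21 to 6.47 in wild-type CMP, and the dendritic cell list at 7.69 to 8.24 and 6.41 to 6.79. In GMP those 2 lists stood at 5.79 to 6.38 and 6.37 to 6.52 in Dnmt3a-/- and at 5.02 to 5.63 and 5.51 to 5.75 in wild-type.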

How the data were processed

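RNA from each sorted sample (20 ng in total, per the labels) was amplified, biotin-labelled and hybridised to a mouse exon array. The authors deposited linear intensities (1.34 to 16208), 1 value for each probe set of an exon on each array; RMA and Partek are named per the submitters' processing notes, and their settings are not given in the sources used here. The array medians lay between 53.0 and 56.8, so the deposited intensities were used without further scaling, as log2 values computed here. Of 194293 probe sets, 179496 carry 1 gene symbol, 1328 several and 13469 none; a gene was summarised as the mean of those probe sets naming it and no other gene (15781 genes, median 9 probe sets). Old symbols were replaced from the RefSeq table of GRCm38.p6 (13727 as annotated, 2039 through a synonym, 37 kept). Detection calls were not at hand, and the median of 18 germline genes, 3.59, stood in for background, and 18.1% of genes lay under it in both groups. A change with the mean of 1 group under it is given as a bound against that level ("at least"), without sampling error. The bound rests on the group mean, and single arrays of that group can lie above the level. The number of arrays limits the precision.

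The 13 wild-type and Dnmt3a-/- arrays were fitted together with limma 3.58.1 (lmFit and eBayes) in R 4.3.3, with contrasts for the step in each genotype and for the difference of the steps; the procedure was tested on simulated data. Genes were named by rule: 12 per direction with the largest called change and no overlap between arrays (predicted, unnamed and olfactory receptor genes left out), up to 6 members of each of 27 lists by size of change, all sort-gate markers, Dnmt3a, and 8 for the difference of the steps. Further list members are named beside them. The comparison, lists and tests were chosen with earlier results of these data known. The title numbers of Dnmt3a-/- CMP and GMP alternate (22298 and 22299, 22300 and 22301, 22302 and 22303), and the labels do not say what they mark. Deviations from the group means correlated across genes with r = 0.121, 0.139 and 0.171 in the 3 adjacent pairs and with -0.148 to 0.0305 in the others, so these pairs were fitted as a replicate block, on the 6 Dnmt3a-/- arrays alone, in an alternative that called 1826 genes. Without pairs those 6 arrays gave 1961 calls, and as random pairs among all 13 arrays 2060. Beside a result with pairs the text gives that of the same 6 arrays without pairs, Tfrc excepted. Within groups the arrays correlated across genes with r = 0.980 to 0.986 in Dnmt3a-/- and 0.966 to 0.976 in wild-type. Alternatives varied the arrays fitted, the arrays left out, the summary over probe sets, the scaling and the filter on dim genes. Related gene families (Ear, Mcpt, H2, Fcgr, Ly6, Csf2rb) may share probe signal, and their members are uncertain to that extent.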

Additional observations from a re-analysis of the deposited data

Results flagged for a closer look

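In 4 of 60 sets of 4 values in wild-type GMP, the only group with 4 arrays, a single array lay far from the others. Chance alone gives about 5% of such sets. The secondary granule and neutrophil maturation list stood at 8.34 on wild-type GMP replicate 1 and at 7.93 to 7.96 on the others. The ribosomal protein list stood at 9.65 on the same array and at 9.90 to 9.94 on the others. The Y-linked list stood at 3.25 on wild-type GMP replicate 4 and at 6.84 to 7.04 on the others. Nrg4 stood at 4.10 on wild-type GMP replicate 2 and at 4.93 to 4.99 on the others, which enters the difference of the steps given for that gene. Groups of 3 arrays, which include both Dnmt3a-/- groups, are too small for this check.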

How the results depend on the processing

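All genes called between Dnmt3a-/- GMP and CMP kept their sign in every alternative but 2, among those tested there. These were the median over probe sets (1589 of 1590) and the brighter probe sets (1586). Most alternatives could not have turned a sign. For nearly all called genes the GMP and CMP arrays did not overlap, so leaving out Dnmt3a-/- arrays could not reverse the change. Adding or leaving out other arrays, or pairing, left the Dnmt3a-/- changes as they were. Against 1590 calls (868 higher, 722 lower), the count was 2439 (1333, 1106) without the 3 wild-type arrays of title numbers 21986 to 21988, 833 (433, 400) without both Dnmt3a-/- arrays of replicate 1, 3853 (1981, 1872) with array weights, 997 (540, 457) with the median over probe sets and 286 (157, 129) for a change above 1.5-fold. Leaving out 1 array at a time gave 968 to 1840 calls, 529 to 1005 higher and 439 to 854 lower. The replicate block of adjacent title numbers gave 1826 calls as fixed pairs on the 6 Dnmt3a-/- arrays alone, of which 1352 were among the 1590. Without pairs these 6 arrays gave 1961 calls, of which 1449 were among the 1590. As random pairs on all 13 arrays (correlation 0.181) there were 2060 calls, which held all 1590. As fixed pairs 17 named genes gained a call and 2 (Bub1, Uhrf1) lost it. In the same 6 arrays without pairs 10 gained a call and 1 (Anxa1) lost it, and as random pairs 6 gained one. For the difference of the steps, 0 calls became 0 to 23 on leaving out 1 array, 10 without the 3 arrays and 48 with array weights. Single named genes near the threshold (Alad, Anxa1, Bub1, Ccne2, Gata2, H2-Aa, Hemgn, Pf4, Rhag, Tlr8 and Uhrf1) lost their call on leaving out some single array. The cause of these shifts was not tested. Signal near background limits Il5ra, Ear6, Prg3 and Mgl2 to calls or bounds.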

Other observations

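Further genes outside the lists were called in the step from Dnmt3a-/- CMP to GMP. They were picked after their values were seen, so they stand as single genes and test nothing. Clec5a, a lectin-like receptor of myeloid cells, rose by 3.41 ± 0.84, Olr1, the lectin-like receptor for oxidised lipoprotein, by 3.24 ± 0.49, Trem3 by 3.21 ± 0.37, Clec4a2 by 2.73 ± 0.46 and Clec12a by 1.79 ± 0.22 (limma adjusted p = 0.0195, 0.00083, 0.000167, 0.00183 and 0.000194). Glutathione reductase, Gsr, rose by 2.14 ± 0.26, Gpx3 by 2.51 ± 0.37, Mgst1 by 2.08 ± 0.46 and Pgd, of the pentose phosphate pathway, by 1.89 ± 0.21. Hvcn1, the proton channel that serves the phagocyte oxidase, rose by 2.11 ± 0.37. Lta4h, which makes leukotriene B4, rose by 2.17 ± 0.21, and its receptor Ltb4r1 by 1.90 ± 0.26. Arsb, Neu1 and Galns, each a lysosomal enzyme, rose by 2.23 ± 0.19, 1.94 ± 0.25 and 1.87 ± 0.19. Their wild-type steps were smaller on the estimate (Gsr 1.23, Lta4h 1.05, Arsb 1.04), and none was called for the difference.

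In the other direction Apoe, apolipoprotein E, fell by 2.11 ± 0.16 in Dnmt3a-/- (adjusted p = 2.05e-05) and by 2.08 ± 0.15 in wild-type. Ctla2a and Ctla2b, cathepsin inhibitors, changed by -2.10 ± 0.47 and -2.03 ± 0.33. Tgfbr3, the betaglycan receptor, changed by -2.01 ± 0.25, Mmp14, a membrane metalloproteinase, by -2.21 ± 0.36, and Slamf7 by -2.01 ± 0.31. Gimap6, a GTPase of lymphocytes, changed by -1.95 ± 0.31, and Kel, the Kell blood group protein, by -2.42 ± 0.48. All of these were called. For Apoe, Ctla2b, Tgfbr3 and Kel the estimated steps of both genotypes lay within 0.05 of each other. Among the falling genes named here Gimap6 had a larger estimated step in wild-type (-2.43), and its difference was not called (adjusted p = 0.911).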
